A study of Mus musculus with 2 samples.

Results

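The genes described here write, copy, read and erase DNA methylation in 2 mouse epithelial cell lines, which the labels call Mlesico and Mle29c. They were chosen by name, as every probe set on the array whose annotation lists a single gene out of a list of 10: Dnmt3a, Dnmt3b, Tet1, Tet2, Tet3, Tdg, Dnmt1, Uhrf1, Mbd2 and Mbd4. Of these, 9 genes had at least 1 such probe set, 24 probe sets in all, among 18193 genes and 34945 single-gene probe sets on the array. Tdg had none of its own, because its 3 probe sets also list 2 Tdg pseudogenes. The array held 1 sample of each line, so no difference below has a replicate check and no p-value could be given.

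Both lines grew in the same serum-containing medium without further treatment, and total RNA of each was labelled with biotin and hybridised to its own array. The series deals with miR-29c in lung fibrosis and with the renewal and death of epithelial cells. The labels do not say whether Mle29c cells carry more or less miR-29c than Mlesico cells, nor how either line was made or whether it is a single clone. A lower or higher value below is therefore lower or higher in the array labelled Mle29c, with no direction of miR-29c attached.

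DNA methylation is the addition of a methyl group to cytosine, in mammals mostly where a C is followed by a G (CpG). Dnmt3a and Dnmt3b place new marks. Dnmt1 copies them onto the new strand after DNA replication, guided by Uhrf1, which binds CpG sites methylated on a single strand. The Tet dioxygenases oxidise the methyl group, and the glycosylase Tdg cuts out the oxidised bases so that repair can restore an unmethylated cytosine. Mbd4 removes the thymine left when methylcytosine loses its amino group, and Mbd2 binds methylated CpG and recruits the NuRD repressor complex. MicroRNAs of the miR-29 family pair through their seed, bases 2 to 8, with sites in target transcripts, and Dnmt3a, Dnmt3b, Tet1, Tet2, Tet3 and Tdg are known targets, whereas the other 4 served here as the comparison.

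The mature family members are shown because the family pairs with its targets through this seed. The target group was taken by name from known targets, not from a search for sites. In mouse, 3 distinct mature miRNAs from 4 loci share the seed, given in capitals, 5′ to 3′, from RefSeq on GRCm38.p6:
mmu-miR-29a-3p: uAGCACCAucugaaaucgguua
mmu-miR-29b-3p: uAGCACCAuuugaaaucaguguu
mmu-miR-29c-3p: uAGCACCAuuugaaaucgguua
The first and the last of these differ at 1 base, outside the seed. Mir29c lies at chr1:195037600-195037621 on the plus strand, within the same locus as Mir29b-2. The DNA letters complementary to the seed are TGGTGCT; transcript ends of the members were not analysed here, so no site is shown.

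Every value below is a log2 ratio, the Mle29c value minus the Mlesico value, unless said otherwise. The deposited values had each probe set centred on the midpoint of both arrays, so a probe set at 0.24 in one array is at -0.24 in the other, and levels of different genes cannot be set against each other. Rounding of the stored numbers gave back a coarse level class: high for a mean log2 signal of 8 or more, middle for 4 to 8 and low below 4. A class that rests on the rounding step alone can be too high, by a class or more. A gene's value is the median over its high and middle probe sets, and a gene with at least 1 of these is called measured, as 14815 genes were. Of the 24 probe sets, 14 were high, 8 middle and 2 low, and the class of 10 rested on the step.

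Low signals spread widely. Of low-class probe sets 57.9% differed by 2-fold or more, against 22.7% in the middle and 11.6% in the high class. The pooled SD between probe sets of the same gene was 0.62 over the 6899 genes with several measured; it was 0.43 within the high class and 1.74 within the low class. This SD mixes measurement error with differences between the sequences that the probe sets match, and it leaves out differences between cultures. Of 14 epithelial markers 13 were measured, 5 with a high-class probe set: Krt8, Krt19, Cldn3, Sftpc and Sftpb. Of the 4 Cldn3 probe sets, 1 was high and 3 were low. Cdh1, Epcam, Krt7, Krt18, Cldn7, Esrp1, Esrp2 and Nkx2-1 were measured in the middle class alone. The epithelial markers were themselves spread, with 3 at least 2-fold higher and 2 lower, from Esrp1 at -4.51 to Sftpb at 2.13. Of 10 fibroblast markers 8 were measured, also 5 with a high-class probe set: Col1a1, Col3a1, Pdgfra, Dcn and Postn. These markers were spread as well, with 2 at least 2-fold higher and 1 lower, from Col1a1 at -3.41 to Postn at 2.39. Of 8 leukocyte markers on the array 7 were measured, 1 (Csf1r) in the high class, and of 8 endothelial markers 6, with Cdh5 and Tek in the high class. Low-class probe sets alone were present for the leukocyte gene Ptprc and the endothelial genes Pecam1 and Emcn. The same held for the fibroblast genes Pdgfrb and Fap and the epithelial gene Cldn4. By these counts epithelial and fibroblast markers cannot be told apart, and their part in the results below was not tested.

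None of the 9 measured members differed by 2-fold. Across all measured genes, 8.42% exceeded 2-fold upward in Mle29c and 7.19% downward, so in a set this small a count of 0 is close to the background. The target genes and the comparison genes lay on opposite sides of 0. All 5 measured target genes were lower in Mle29c, with a median of -0.49, and all 4 others were higher, with a median of 0.32; the median of all measured genes was 0.00474 and 49.6% of them were below 0. Tet1, at -0.04, and Mbd2, at 0.05, were the innermost and were only 0.098 apart. Their sign was not stable: Tet1 stood at 0.55 when its low-class probe sets were included and at 0.067 without probe sets that match several transcripts, and Mbd2 at -0.05 after centring on its chromosome. By probe set, 11 of 12 measured probe sets of target genes were below 0, and 9 of 10 of the others were above 0. Of all measured single-gene probe sets, 50.3% were below 0. Probe sets of a gene are not independent, and those of Dnmt3a share a single record, as do those of Dnmt3b. The low-class Tet1 probe sets, left out of this count, were above 0, at 1.03 and 2.59. The group medians differed by -0.80, which has no test with 1 array per line.

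**Figure D1:**
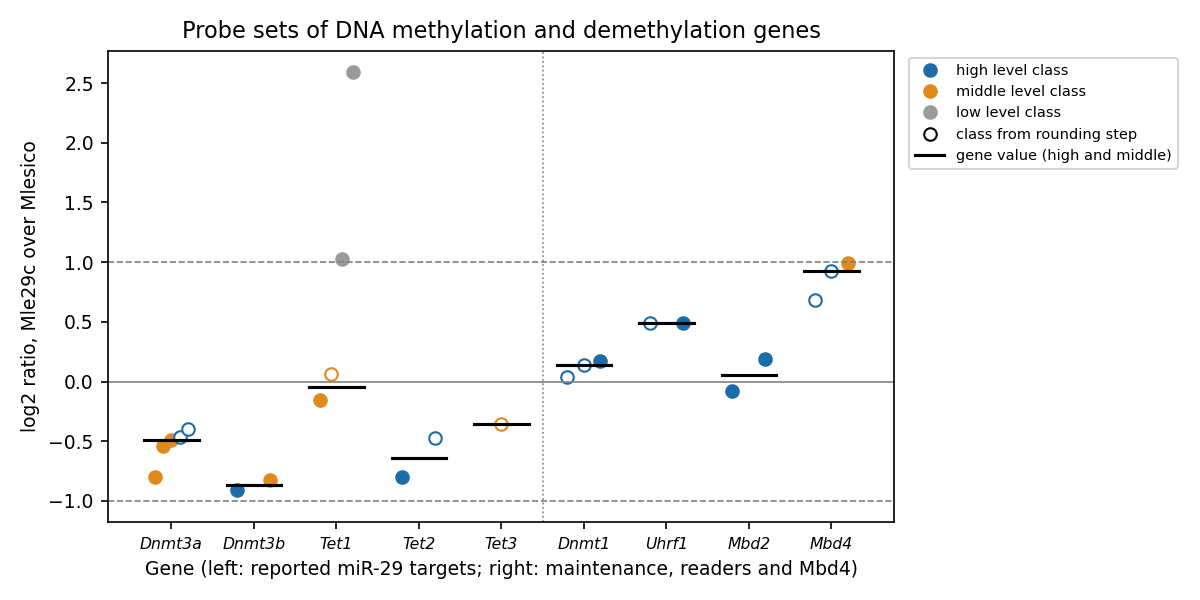
Each point is the log2 ratio (Mle29c over Mlesico) of a probe set, by gene; colour gives the level class, open points have a class from the rounding step, black bars are gene values and dashed lines mark 2-fold. Points of Dnmt3a, Dnmt3b, Tet2 and Tet3 all lie below 0 and those of Dnmt1, Uhrf1 and Mbd4 above it, while the 2 low-class Tet1 points lie past 2-fold, at 1.03 and 2.59.

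Dnmt3b, a de novo methyltransferase, had the lowest value of the members, -0.87 ± 0.064 (SD of 2 probe sets, which are not replicates), so its signal in Mle29c was 45.2% below that in Mlesico. Its high-class probe set stood at 0.46 in Mlesico and -0.46 in Mle29c on the centred scale, a log2 ratio of -0.91. Its middle-class probe set stood at 0.41 and -0.41, a ratio of -0.82. Both probe sets were thus lower in Mle29c by nearly the same amount, and 8.81% of measured genes had a lower ratio. Both were designed from the same transcript record, so they share their source.

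Dnmt3a, the other de novo enzyme, stood at -0.49 ± 0.16 (SD of 5 probe sets), a signal 28.7% lower in Mle29c. Its 3 middle-class probe sets were centred at 0.40, 0.27 and 0.24 in Mlesico and at the same sizes below 0 in Mle29c, which gives ratios of -0.80, -0.54 and -0.49. The 2 high-class probe sets had ratios of -0.47 and -0.39. All 5 agreed in sign, but they were designed from a single expressed sequence and so are close to repeats of the same measurement. The lowest Dnmt3a probe set and the highest of Dnmt3b were 0.02 apart, so the ratios of both genes met at their edges without overlapping. A share of 18.4% of measured genes had a lower ratio than Dnmt3a, well inside the bulk of the distribution.

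Among the Tet dioxygenases, Tet2 stood lowest at -0.64 ± 0.23 (SD of 2 probe sets), a signal 35.7% lower in Mle29c. A high-class probe set was at 0.40 in Mlesico and -0.40 in Mle29c, a ratio of -0.80, and the other was at 0.24 and -0.24, a ratio of -0.48. These probe sets come from different sequence records, unlike those of Dnmt3a and Dnmt3b. Tet3 had a single probe set, at 0.18 in Mlesico and -0.18 in Mle29c, a ratio of -0.36. That probe set was in the middle class by the rounding step, so its level may be low. A share of 50.6% of measured genes lay at least as far from 0 as Tet3.

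Tet1, which is best known from stem cells and early development, gave no common answer across its 4 probe sets. The middle-class probe sets had ratios of -0.15 and 0.067, close to 0 on either side. Both low-class probe sets were higher in Mle29c, from -0.51 to 0.51 on the centred scale in the first, a ratio of 1.03, and from -1.30 to 1.30 in the second, a ratio of 2.59. In the low class 29.7% of probe sets were at least 2-fold higher in Mle29c, so a ratio past 2-fold is common there. The part of low signal in the Tet1 difference was not tested.

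The 3 probe sets that list Tdg together with the pseudogenes Tdg-ps and Tdg-ps2 were in the high class by the rounding step. Their ratios were -0.22, -0.28 and -0.39, all lower in Mle29c. Signal from the gene and from its near copies cannot be told apart in them, so Tdg has no value of its own here and entered no count. With them counted as Tdg, the difference between the group medians would be -0.74.

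Dnmt1, the maintenance methyltransferase, differed least among the genes with several concordant probe sets. It stood at 0.14 ± 0.069 (SD of 3 probe sets), with ratios of 0.037, 0.14 and 0.17. On the centred scale its 3 probe sets lay between -0.084 and -0.019 in Mlesico and between 0.019 and 0.084 in Mle29c. A difference this small lies inside the pooled SD of 0.62, and 77.9% of measured genes were at least as far from 0. The values of Dnmt3a, Tet1, Tet3, Uhrf1 and Mbd2 also lie inside that SD, and Tet2 at -0.64 barely exceeds it. That SD is for single probe sets, however, and these are gene medians. Divided by the root of the number of probe sets, it is 0.28 for Dnmt3a and 0.44 for Uhrf1 and Tet2, whose values exceed it. The division treats probe sets as independent, which they are not. All 3 Dnmt1 probe sets carry a suffix that marks possible matches to several transcripts, so Dnmt1 has no value without such probe sets.

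Uhrf1, the partner that brings Dnmt1 to replicated DNA, was 1.40-fold higher in Mle29c, at 0.49 ± 0.003 (SD of 2 probe sets). Its probe sets were at -0.25 and -0.24 in Mlesico and at 0.25 and 0.24 in Mle29c, both in the high class and both from the same sequence record. The ratio exceeded that of 79.9% of measured genes. In size it was close to that of Dnmt3a, in the other direction.

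Mbd2 stood at 0.05 ± 0.19 (SD of 2 probe sets), with high-class probe sets at -0.081 and 0.19 that fell on different sides of 0. The data give no direction for this reader. Mbd4, the thymine glycosylase with a methyl-CpG binding domain, had the highest value of the members, 0.93 ± 0.16 (SD of 3 probe sets), or 1.90-fold. Its probe sets were centred at -0.34, -0.46 and -0.49 in Mlesico and at 0.34, 0.46 and 0.49 in Mle29c, with ratios of 0.68, 0.93 and 0.99. All 3 were designed from different records and lay below 2-fold, and 90.6% of measured genes had a lower ratio.

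**Figure D2:**
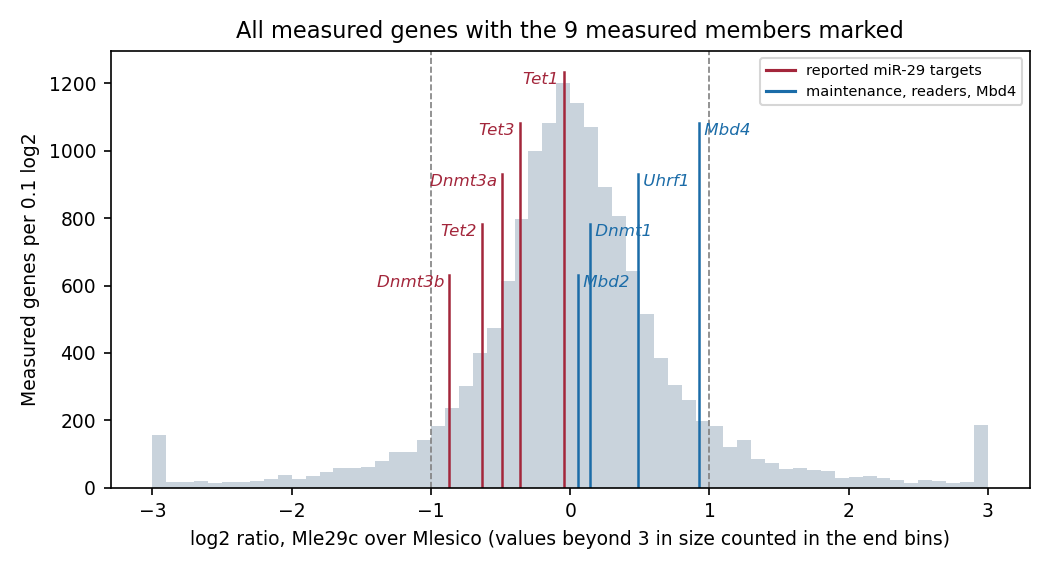
The histogram counts the 14815 measured genes by log2 ratio (Mle29c over Mlesico) in bins of 0.1, with the 9 measured members as vertical lines, red for reported miR-29 targets and blue for the others; line height only separates the labels. All members lie between the dashed 2-fold lines, from Dnmt3b at -0.87 to Mbd4 at 0.93.

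Members were also set beside their chromosome, since ratios differed between chromosomes. Mbd4 and Tet3 both lie on chromosome 6, whose genes had a median of 0.32. Mbd4 stood at 0.60 relative to that median, less than its ratio against 0, while Tet3 stood at -0.68 relative to it, further than its ratio against 0. Among the 10 nearest measured genes of Mbd4 only Washc2 was below 0 and the median was 0.52, so its neighbourhood as a whole was higher in Mle29c. The next 2 genes in one direction, the cilium gene Ift122 and the plexin gene Plxnd1, stood at 1.14 and 1.38. Around Tet3 the neighbours had a median of 0.41, with 2 of 10 below 0 and 1, 1700003E16Rik at -1.81, lower than Tet3 itself. The part of the chromosome in the Mbd4 and Tet3 ratios was not tested.

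For the other members the chromosome median lay between -0.08 and 0.11. Dnmt3b stood at -0.86 relative to the median of chromosome 2, and its 10 neighbours had a median of -0.18, with 2 of them lower than Dnmt3b: Bpifa1 at -0.93 and Bpifa5 at -1.54, which belong to a family of secreted proteins of airway and mouth. Dnmt3a, on chromosome 12, had neighbours with a median of -0.08. Of these 10, 6 were below 0 and 2 were lower than Dnmt3a, Adcy3 at -1.40 and 1110002L01Rik at -0.78. Tet2 had 7 of 10 neighbours below 0, with a median of -0.23. The lowest of them was the adjacent gene Cxxc4 at -1.27 (-0.85 with its low-class probe set kept), which encodes the CXXC domain protein known to have split from the ancestor of Tet2 and to bind and regulate it. Uhrf1 had neighbours with a median of 0.21, and those of Dnmt1 had a median of -0.06. The neighbours of Tet1 had the lowest median of all members, -0.31, with 7 of 10 below 0 and 7 below Tet1 itself. Around Mbd2 the median was -0.03.

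**Figure D3:**
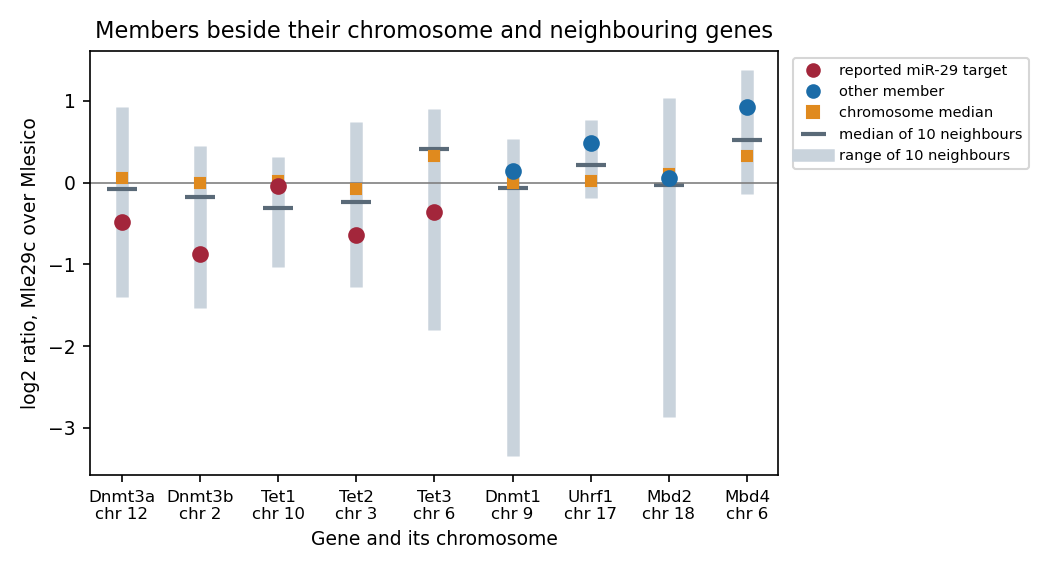
For each member on its chromosome, the round point is its log2 ratio (Mle29c over Mlesico), the square the median of all measured genes of that chromosome, the dash the median of the 10 nearest measured genes and the grey bar their range. Tet3 lies below and Mbd4 above their shared chromosome median of 0.32. Dnmt3b and Dnmt3a lie below their neighbour medians of -0.18 and -0.08, and 2 of the 10 neighbours of each lie lower still.

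Start sites of the members were compared in windows of 300 bases, 250 before to 50 after each start in RefSeq, on GRCm38.p6. There were 14 windows for 9 of the 10 genes, and several genes have more than 1 annotated start. CpG sites, the substrate of these enzymes, were frequent: Tet2 had 57, more than 99.8% of the 32851 windows of all genes, and the densest Dnmt3a window had 47, against a median of 7. Dnmt3b had 30, Mbd4 25, Tet3 22 and Tet1 17, while Uhrf1 had 33 in the denser of its windows and so had Dnmt1. Each of the 9 genes with a window, which include Tdg and leave out Mbd2, had at least 1 above the median of all windows.

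After the ratios were known, 2 motifs were searched on both strands. The E2F motif was any of TTTCCCGC, TTTCGCGC, TTTGCCGC and TTTGGCGC, which S-phase transcription factors of the E2F family are known to bind, and it was present in 2.26% of all windows. Among the members it was found in a window of Dnmt1 and of Uhrf1 and in none of the others. The GC box GGGCGG, bound by Sp1, was present in 35.7% of all windows and in 11 of the 14 member windows, with up to 7 copies in Dnmt3a, 4 in Dnmt3b, 3 in Uhrf1 and 2 in Dnmt1, so it was not particular to the de novo pair; 0 of its matches in these windows overlapped an E2F match. The stretches of 30 bases are shown to let the maintenance pair be compared with the de novo pair, with the E2F motif in capitals in the first pair and the GC box in the second, and the coding strand read 5′ to 3′; in Dnmt1 the motif is read on the opposite strand:
Dnmt1, chr9:20952824-20952853, minus strand: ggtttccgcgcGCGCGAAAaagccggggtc
Uhrf1, chr17:56304117-56304146, plus strand: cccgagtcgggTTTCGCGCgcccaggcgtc
Dnmt3a, chr12:3806873-3806902, plus strand: ggcGGGCGGaggcctGGGCGGcGGGCGGcc
Dnmt3b, chr2:153649380-153649409, plus strand: gcgccccccGGGCGGGGGCGGggccagggc
Dnmt1 and Uhrf1 share the same 8 letters, TTTCGCGC, read on opposite strands. A match describes the letters and does not show that a factor binds there.

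The genes with which Dnmt1 and Uhrf1 are switched on in the cell cycle differed little but mostly in the same direction. Of 24 measured S-phase genes none was past 2-fold, against 15.6% of all measured genes in either direction; 21 were above 0 and the median was 0.23, between the values of Dnmt1 and Uhrf1. The highest was Fen1, a nuclease that processes replication intermediates, at 0.90, and the lowest the replication licensing gene Cdc6 at -0.37. E2f1 itself stood at 0.21. The median fell to 0.14 over high-class probe sets alone. Sp1, a known activator of Dnmt1, stood at -0.10 with probe sets from -0.25 to 0.0079.

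Partners of the methyltransferases had 1 of 20 measured genes past 2-fold, or 5%, against 15.6% of all measured genes. In the high class alone it was 2 of 17, where 678 of all 10559 genes were higher and 553 lower. The gene past 2-fold over both classes was Hells, the remodelling ATPase that opens chromatin for DNA methylation, at 1.11, with its 3 probe sets at 0.99 to 1.48. All 3 were above every probe set of the methyltransferases themselves. The lowest partner was Trdmt1, a methyltransferase of tRNA in the same protein family, at -0.45 with probe sets at -0.94 and 0.044. Dnmt3l, the inactive cofactor of Dnmt3a and Dnmt3b, stood at 0.58 from a single middle-class probe set, on the other side of 0 from the enzymes it serves. Uhrf2, the paralogue of Uhrf1, stood at 0.42, but its probe sets disagreed, at -0.30 and 1.14. The list median was 0.16, and 14 of 20 genes were above 0.

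Other readers of methylated DNA and subunits of the NuRD complex lay within 2-fold in 15 of 15 measured genes, against 84.4% of all measured genes. Their median was -0.09. In the high class alone 1 of 15 was past 2-fold, where 678 of all 10559 genes were higher and 553 lower. Mta3, a NuRD subunit, was highest at 0.80, with probe sets from -0.52 to 2.09 that give no common direction, and the NuRD remodeller gene Chd3 was lowest at -0.70. The Mbd family genes Mbd1 and Mbd3 stood at -0.53 and -0.03.

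The list of base excision repair and Tet partners had 2 of 25 genes at least 2-fold higher and 2 lower, or 16%, close to the 15.6% of all measured genes. In the high class alone 1 of 21 passed 2-fold, where 678 of all 10559 genes were higher and 553 lower. Without probe sets that match several transcripts it was 2 of 19, where 1135 of all 13195 genes were higher and 1013 lower. Neil3, a glycosylase for oxidised bases, had the highest ratio, 3.18, from 1 middle-class probe set (2.09 with its low-class probe set kept), and Ogg1, which removes oxidised guanine, stood at 1.33 with probe sets at 0.79 and 1.87. Ogg1 lies on chromosome 6, as does Mbd4. Cxxc4 stood at -1.27 with high-class probe sets at -1.69 and -0.85 (-0.85 with its low-class probe set kept, which ends the 2-fold call), and the cytidine deaminase gene Apobec1 at -1.09. Idh1, an enzyme that makes the 2-oxoglutarate on which Tet enzymes depend, stood at -0.60. The list median was -0.04.

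Genes that supply the methyl donor S-adenosylmethionine had 1 of 14 measured genes at least 2-fold higher and 2 lower, or 21.4% against 15.6% of all measured genes. In the high class alone it was 1 of 12, where 678 of all 10559 genes were higher and 553 lower. Shmt1, which feeds carbon from serine into the folate cycle, had middle-class probe sets at -4.75 and -1.74 and a value of -3.24, and Bhmt, which remakes methionine from betaine, stood at -5.06 from 1 middle-class probe set. Nnmt, which uses up methyl groups on nicotinamide, stood at 1.67 from 1 high-class probe set. The other 11 lay within 2-fold, and the median was 0.03.

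Germline genes known to be kept silent by promoter methylation often had low signals. Of 20 on the array, 10 had no measured probe set, against 3378 of all 18193 genes. A high-class probe set was present for 3 of the 20. Of the 10 measured, 8 lay within 2-fold, near the 84.4% of all measured genes, and the other 2 were lower. With low-class probe sets kept, 10 of 20 passed 2-fold, 4 higher, among them Dazl at 3.92 and Zfp42 at 3.11, and 6 lower. Under that setting 2252 of all 18193 genes were at least 2-fold higher and 1980 lower. Counted by probe set and not by gene, 57.9% of the low class passed 2-fold. In the high class alone 1 of 3 passed, where 678 of all 10559 genes were higher and 553 lower. With the class taken from the sum of the stored values alone it was 0 of 5, where 625 of all 9076 genes were higher and 548 lower. Slc25a31, an ADP/ATP carrier of the germline, stood at -2.41 in the middle class, and the homeobox gene Rhox5 at -1.29 in the high class. The list median of 0.19 was at 0.00093 for the 3 genes with a high-class probe set. The microRNA processing list held no gene past 2-fold among 13, with a median of 0.02, from Ago4 at -0.81 to Ago2 at 0.72.

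**Figure D4:**
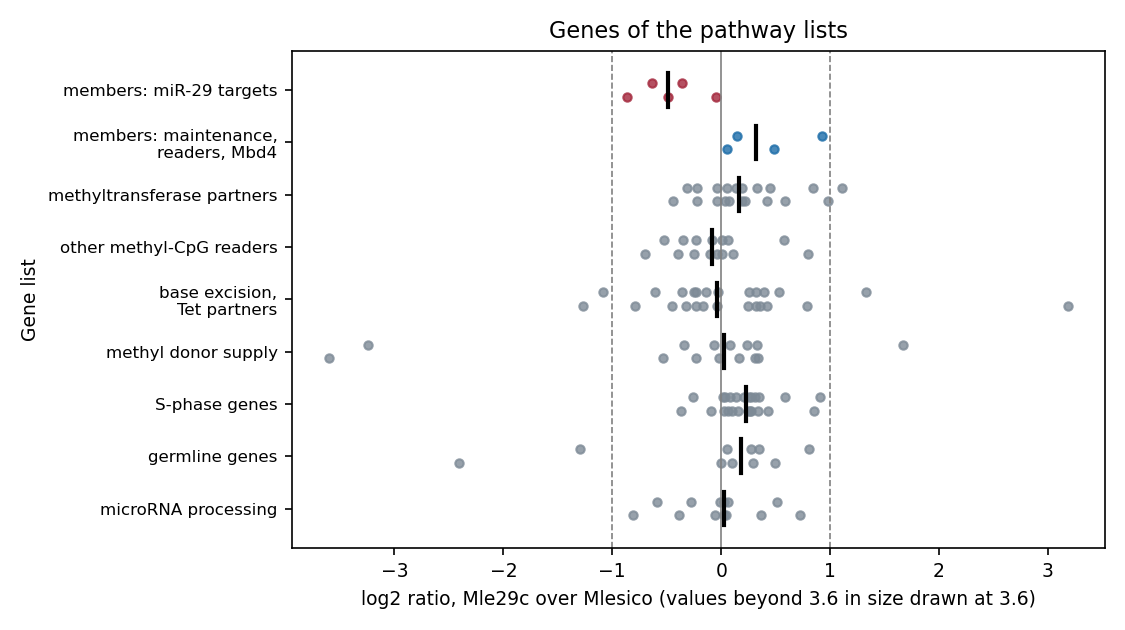
Each point is the log2 ratio (Mle29c over Mlesico) of a measured gene, in rows by list, with black bars at list medians and dashed lines at 2-fold; Bhmt, at -5.06, is drawn at the left edge. The target members lie furthest to the left by median, at -0.49, and the maintenance and reading members furthest to the right, at 0.32, next to S-phase genes at 0.23.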

How the data were processed

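RNA of 2 cell lines was measured on 1 array each, with 45101 probe sets. The authors deposited log values, read here as log2, after subtracting the midpoint of the arrays from each probe set: in every row the sum of the values is 0 within 1e-06. Per the submitters' processing notes, MAS5 made the signals from the single probes; its version, the log base and the build are not given in the sources used here. Were the logs natural, each fold would be larger than printed. No value column was left unused (0).

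Probe sets were named by the platform annotation of 2016 (34945 list a single gene, 932 several, 9160 none here, 64 are controls). A GRCm38.p6 gene table gave current symbols for 34741 of these, matched on gene number; 204 kept the old symbol. Level classes came from single-precision rounding, by the remainder of the sum of both values or, where it was 0, by the rounding step; 161 tied and 81 unresolved probe sets stayed out. On simulated data a minimum accuracy was required of the class from the sum. None was required of the class from the step, so that run does not vouch for it. Python 3.11.15, numpy 2.4.6 and pandas 2.3.3 were used. Precision is limited by the number of arrays. A gene was called by size alone, at 2-fold.

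Members and lists were chosen with earlier results of these data known. Named were all members and, from each pathway list, the genes past 2-fold, or the highest and lowest where fewer than 2 were. Cell type markers, neighbouring genes, Dnmt3l, Uhrf2, Mbd1, Mbd3, Idh1, E2f1, Sp1 and the host transcript of Mir29c were named outside this rule, after their values were seen.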

Additional observations from a re-analysis of the deposited data

How the results depend on the processing

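Of 184 values recomputed for 30 results, 145 moved by less than the spread between probe sets or, for counts, by at most 1.5 times. The other 39 moved further. Of 49 recomputed member values 46 kept their sign; the exceptions were Tet1 under 2 settings and Mbd2 under 1. The medians of the methyl donor, microRNA processing, base excision and reader lists, all near 0, changed sign under 1 or more settings. The difference between the target and comparison groups stayed negative under all 8 alternatives, from -1.16 to -0.74. The value of -1.16 came from natural logs, a setting that rescales every value and cannot change a sign. That setting is also among the recomputed member values. So is the one with all probe sets kept, under which only Tet1 could change. With all probe sets kept the group difference was unchanged at -0.80. Of the members only Tet1 has low-class probe sets, so no other member value could change. Tet1 was already the highest target and rose further, so the target median could not move and the setting does not probe the difference. With all probe sets kept, Tet1 stood at 0.55, and 2252 genes were at least 2-fold higher and 1980 lower. The high class alone gave 678 and 553 genes, and medians of -0.14 for base excision, 0.14 for S-phase and 0.00093 for germline genes. Without probe sets that can match several transcripts, microRNA processing had a median of -0.26, and Dnmt1 and Dnmt3b had no value. If the values are natural logs, 2033 genes were higher (13.7%) and 1808 lower (12.2%), with 1 member on each side, Mbd4 at 1.34 and Dnmt3b at -1.25; the target median was -0.70, the group difference -1.16 and the S-phase median 0.33; partners then had 3 genes past 2-fold and readers 2. At 1.5-fold 2463 genes were higher (16.6%) and 2245 lower (15.2%), with 1 member higher, Mbd4, and 2 lower, Dnmt3b and Tet2. Fewer probe sets, another base or another threshold enter by construction. With the class from the sum alone, chosen after the data were seen, 625 genes were higher and 548 lower, the target median was -0.67 over 4 genes, methyltransferase partners stood at 0.058 and base excision genes at 0.072; the cause was not tested. No paired analysis was possible because each line has a single array. Low signal limits Tet1 most, and the absolute level of every gene is unknown.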

Other observations

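The only annotated transcript that spans both Mir29b-2 and Mir29c, A330023F24Rik, had 1 probe set. It stood at -0.82 in Mlesico and 0.82 in Mle29c on the centred scale, a log2 ratio of 1.64. It was in the low class, where 29.7% of probe sets were at least 2-fold higher in Mle29c, so the value sets no direction for the microRNA in these lines.

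Among the S-phase genes with a start-site window, 7 of 20 held the E2F motif found in Dnmt1 and Uhrf1, against 2.61% of all 27025 genes with a window. This is a description of the letters, and no expression value entered it.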
